A study of Homo sapiens with 6 samples.

Results

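The genes described here are those of the collagen chains, the polypeptides that wind in threes into the triple helices of the extracellular matrix. They were taken from the array table as every probe set with exactly 1 gene symbol in the platform annotation, where that symbol is COL, a number, A and a number. The rule gave 112 of the 41091 probe sets with 1 symbol, and these measured 43 of 19775 genes. By the structural class of the protein, 11 genes encode fibrillar chains, 6 encode the basement membrane chains of type IV, and 10 encode FACIT chains, fibril-associated collagens whose own triple helices are interrupted. A further 3 encode transmembrane chains. The other 13 comprise 2 multiplexins, 5 beaded-filament chains of type VI, the anchoring-fibril chain COL7A1, 3 network-forming chains of types VIII and X, and COL26A1 and COL28A1.

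The study measured total RNA of Caco-2, a cell line from a human colon cancer whose cells grow as a sheet resembling absorptive gut epithelium. One group of 3 arrays was transfected with an siRNA against SDC1 and the other group of 3 arrays with a negative control siRNA. All 6 arrays therefore come from 1 line, and both groups went through transfection. Replicates are described as independent, but separate cultures are not mentioned, so the p-values reflect only how far these arrays scatter, in part perhaps for technical reasons. The question put to the arrays was which genes SDC1 regulates.

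The product of SDC1, syndecan-1, is a proteoglycan of the epithelial cell surface whose heparan sulfate chains bind matrix proteins, collagens among them. Collagen chains are made as procollagens in the endoplasmic reticulum, where prolines and lysines are hydroxylated and chains associate into trimers of the same or of different chains. In the gut wall, fibroblasts make most of the fibrillar collagen, and the epithelium rests on a basement membrane built on type IV collagen.

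The deposited values are log2 signals from which the median of each probe set across the 6 arrays has been taken off. They give differences between arrays and no absolute level, so levels of different collagens could not be ranked. The steps in which the numbers are stored still place each probe set in a brightness class, with the signal before centring at 8 to 16, at 4 to 8 or below 4 on the log2 scale. By its brightest probe set, a collagen gene was in the top class in 10 cases, in the middle class in 22 and in the lowest in 11. The share in the top class was 23.3% of collagen genes and 30.2% of all genes, and that in the lowest class was 25.6% and 23.9%. For each gene, the probe sets of its brightest class were averaged, and differences are SDC1 siRNA minus control siRNA with the moderated standard error of the limma fit. The siRNA target SDC1 fell by 0.84 ± 0.08 on the log2 scale (1.79-fold, limma adjusted p = 0.0238) with no overlap between the groups. Each of its probe sets gave an exact two-sided permutation p = 0.1, the smallest that 3 arrays against 3 allow. The SDC1 call was lost when any 1 array was left out (limma adjusted p from 0.0615 to 0.326), after another quantile normalization and with a replicate block. With 3 arrays in a group, precision is limited throughout.

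No collagen gene changed past the threshold. Of 43 collagen genes, 0 passed a limma adjusted p of 0.05 over all 19775 genes, where 5 genes or 0.0253% passed, and the lowest adjusted p among collagens was 0.159. Their differences ran from -0.31 to 0.42 on the log2 scale, with 26 above 0 and 17 below. The median difference was 0.03 for collagen genes and 0.01 for all genes, and the share above 0 was 60.5% against 52.1%. The median size of the difference, without its sign, was 0.11 for collagens and 0.08 for all genes. A total of 9 collagen genes, or 20.9%, had an unadjusted limma p under 0.05, where 10.6% of all genes did. Of these 9, COL5A3, COL1A2, COL2A1 and COL4A6 were above 0, in a direction that 5.43% of all genes took at that p. COL15A1, COL6A6, COL3A1, COL5A2 and COL12A1 were below 0, as 5.19% of all genes were. The groups did not overlap for 12 collagen genes, or 27.9%, against a background of 16.7%. In 6 of them the SDC1 siRNA arrays lay above the controls and in 6 below, as in 8.26% and 8.47% of all genes.

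The standard errors of the 43 differences lay between 0.06 and 0.16. The 95% interval lay inside a 1.5-fold change in either direction for 42 of them. The exception was COL5A3, whose interval reached 0.64 on the log2 scale. Where a gene used several probe sets, its interval is that of their average and does not take in their disagreement. Tested singly, some of these probe sets reached past 1.5-fold, or 0.58 on the log2 scale. Among them, 1 of COL3A1 had an interval from -0.78 to -0.08 and 1 of COL2A1 from 0.09 to 0.74. A difference of 1.5-fold or more was fitted for 0 collagen genes and for 30 genes in the whole table.

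**Figure D1:**
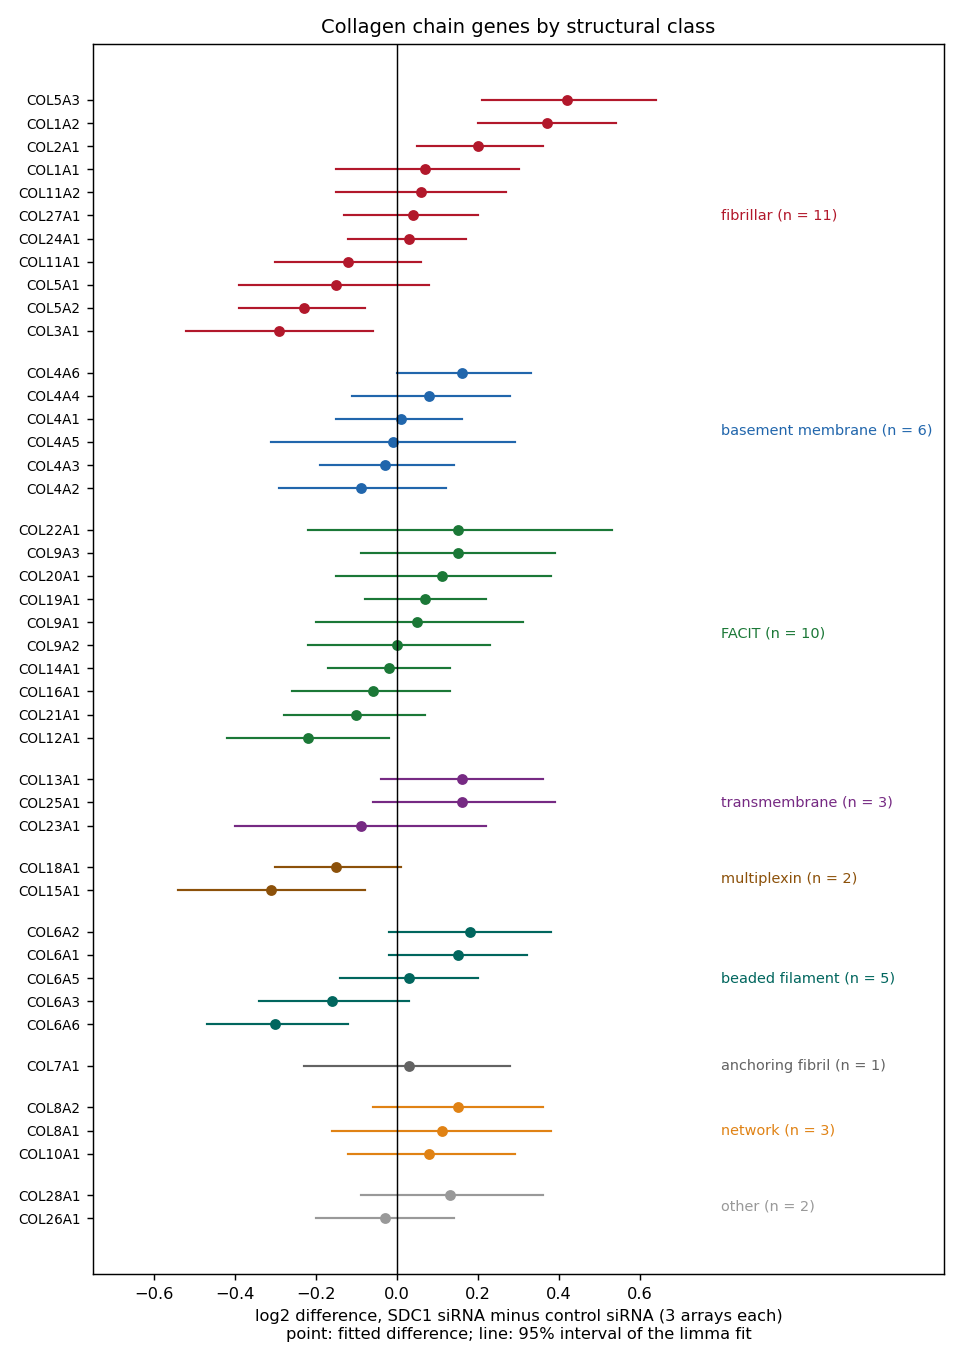
Fitted log2 difference (SDC1 siRNA minus control siRNA, 3 arrays each) of 43 collagen genes with its 95% interval, grouped and coloured by structural class. Fibrillar chains spread from -0.29 (COL3A1) to 0.42 (COL5A3), while the 6 type IV chains stay between -0.09 and 0.16.

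Fibrillar chains held the 2 largest positive differences among collagens, COL5A3 and COL1A2. In this class of 11, 7 genes were above 0 and 4 below (median 0.04), and 5 had an unadjusted limma p under 0.05, where 10.6% of all genes did. None passed over all genes.

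COL5A3, the alpha3 chain of type V collagen that some tissues add to heterotrimers controlling fibril diameter, had the largest positive difference. Its relative log2 signal was -0.33, -0.11 and -0.14 in control replicates 1, 2 and 3 and 0.11, 0.23 and 0.36 in SDC1 siRNA replicates 1, 2 and 3. The groups did not overlap. The difference was 0.42 ± 0.09 (95% interval 0.21 to 0.64, limma adjusted p = 0.178). The bases just before its start site, as RefSeq places it on GRCh38.p14, are shown because it is the member with the largest difference that has a matched promoter. The stretch is chr19:10010505-10010654 on the minus strand, written 5′ to 3′ and ending at the base before the start, and capitals mark CCAAT and GGGCGG on either strand.
COL5A3: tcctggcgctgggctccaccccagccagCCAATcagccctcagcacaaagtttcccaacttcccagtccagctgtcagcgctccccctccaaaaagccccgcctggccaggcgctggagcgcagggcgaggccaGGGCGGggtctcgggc

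COL1A2, the alpha2 chain of type I collagen, was at -0.20, -0.13 and -0.33 in control replicates 1, 2 and 3. In SDC1 siRNA replicates 1, 2 and 3 it was at 0.13, 0.14 and 0.18. These 3 SDC1 siRNA arrays lay close together and above all controls, with means of -0.22 ± 0.10 (SD, n = 3) and 0.15 ± 0.02 (SD, n = 3). The difference was 0.37 ± 0.07 (limma adjusted p = 0.159, the lowest among collagens). It rests on 2 probe sets of the top brightness class, with differences of 0.36 and 0.37, whose names end in _s_at, the mark of probes shared between transcripts. The remaining probe set, in the middle class, was at 0.12 ± 0.16.

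COL2A1, the chain of cartilage type II collagen, was at 0.20 ± 0.07 (limma adjusted p = 0.355). Its arrays were at -0.14, -0.03 and -0.18 with control siRNA and at 0.07, 0.08 and 0.11 with SDC1 siRNA, which did not overlap. Both of its probe sets were in the lowest brightness class, and they disagreed, at 0.42 ± 0.14 and -0.01 ± 0.11.

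On the lower side, COL3A1, the chain of type III collagen that forms fibrils together with type I, was at 0.02, 0.32 and 0.13 in the controls and at -0.23, -0.18 and 0.00 with SDC1 siRNA. The closest arrays of the 2 groups were control replicate 1 and SDC1 siRNA replicate 3. Its difference was -0.29 ± 0.10 (limma adjusted p = 0.358), -0.21 without control replicate 2, and -0.03 without probe sets of shared sequence types. COL5A2, the alpha2 chain of type V, was at 0.12, 0.19 and 0.07 in the controls and at -0.09, -0.16 and -0.07 with SDC1 siRNA. Its difference of -0.23 ± 0.07 (limma adjusted p = 0.307) came from a probe set in the top class, and its other probe set was at -0.32 ± 0.10. COL3A1 and COL5A2 are immediate neighbours among protein-coding genes on chromosome 2.

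The remaining 6 fibrillar genes had an unadjusted limma p above 0.05. COL1A1, the alpha1 chain of type I, was at 0.07 ± 0.10, and COL5A1, the alpha1 chain of type V, at -0.15 ± 0.10. The type XI chains COL11A1 and COL11A2, minor partners of type II collagen in cartilage fibrils, were at -0.12 ± 0.08 and 0.06 ± 0.09. COL24A1 and COL27A1, fibrillar chains that form their own trimers, were at 0.03 ± 0.06 and 0.04 ± 0.07.

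**Figure D2:**
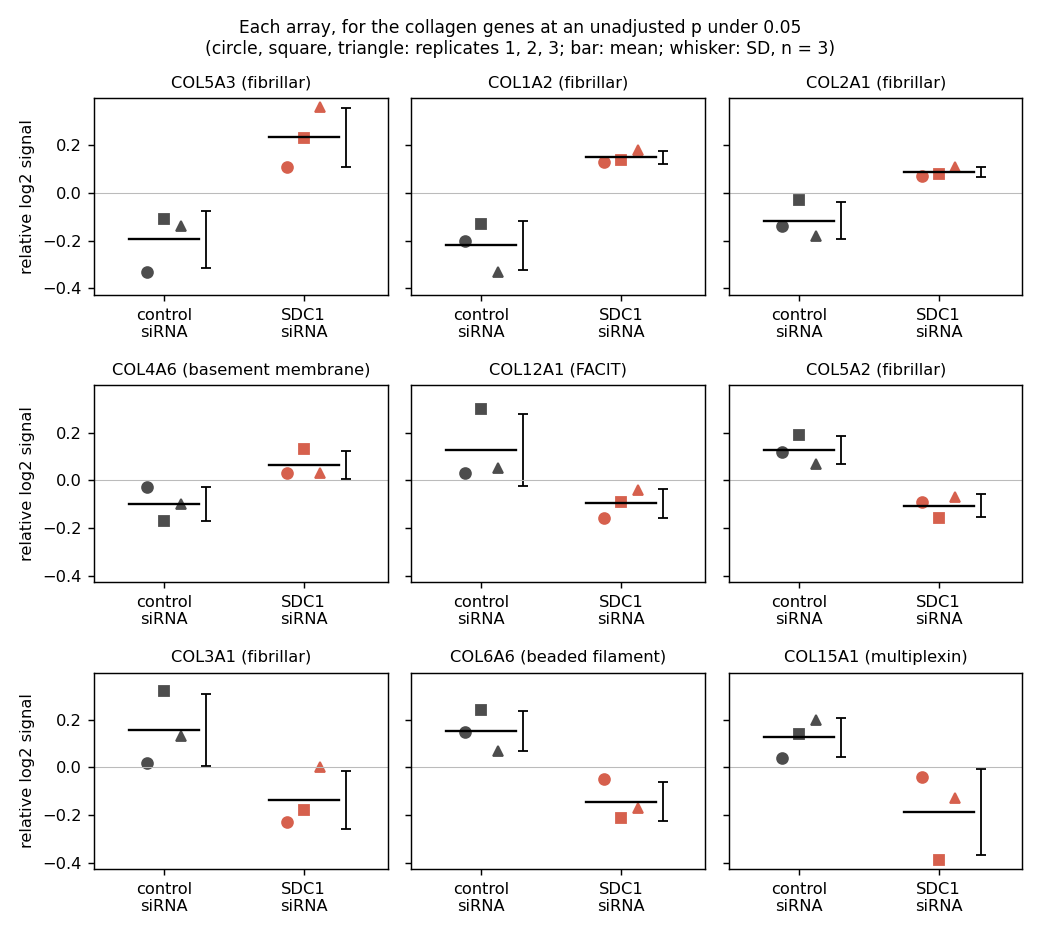
Relative log2 signal of each array for the 9 collagen genes at an unadjusted limma p under 0.05, with control siRNA on the left and SDC1 siRNA on the right of each panel. Bars are means and whiskers SDs (n = 3), and COL1A2 and COL2A1 show the tightest SDC1 siRNA arrays, each with an SD of 0.02. For COL2A1 that is the average of 2 probe sets that disagreed, whose SDC1 siRNA SDs were 0.10 and 0.11 singly.

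Chains that combine into the same trimers were compared within each array, as the log2 ratio of the 2 centred values, in 16 pairs. The smallest exact two-sided permutation p is 0.1 here, and adjusted over the 16 pairs the lowest was 0.32, so no pair could pass. In type V collagen, COL5A3 over COL5A2 was at -0.45, -0.30 and -0.20 in the controls and at 0.20, 0.40 and 0.43 with SDC1 siRNA. COL5A3 over COL5A1 was at -0.29, -0.21 and -0.34 in the controls and at 0.25, 0.42 and 0.23 with SDC1 siRNA. Both ratios separated the groups, by 0.66 and 0.58 on average, whereas COL5A2 over COL5A1 overlapped with a difference of -0.08.

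In type I collagen, COL1A2 over COL1A1 was at -0.12, -0.27 and -0.19 in the controls and at 0.14, 0.18 and -0.02 with SDC1 siRNA, a difference of 0.29 with no overlap (exact permutation p = 0.1, adjusted p = 0.32). In type VI, COL6A3 over COL6A1 was lower by a difference of -0.31, also with no overlap, while COL6A2 over COL6A1 differed by 0.03 and overlapped. COL11A2 over COL11A1 did not overlap either and differed by 0.18. The type IV and type IX pairs overlapped in each case. These ratios share arrays and chains, none passed a test, and no background share was computed for ratios, so the absence of overlap is a description of these arrays.

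**Figure D3:**
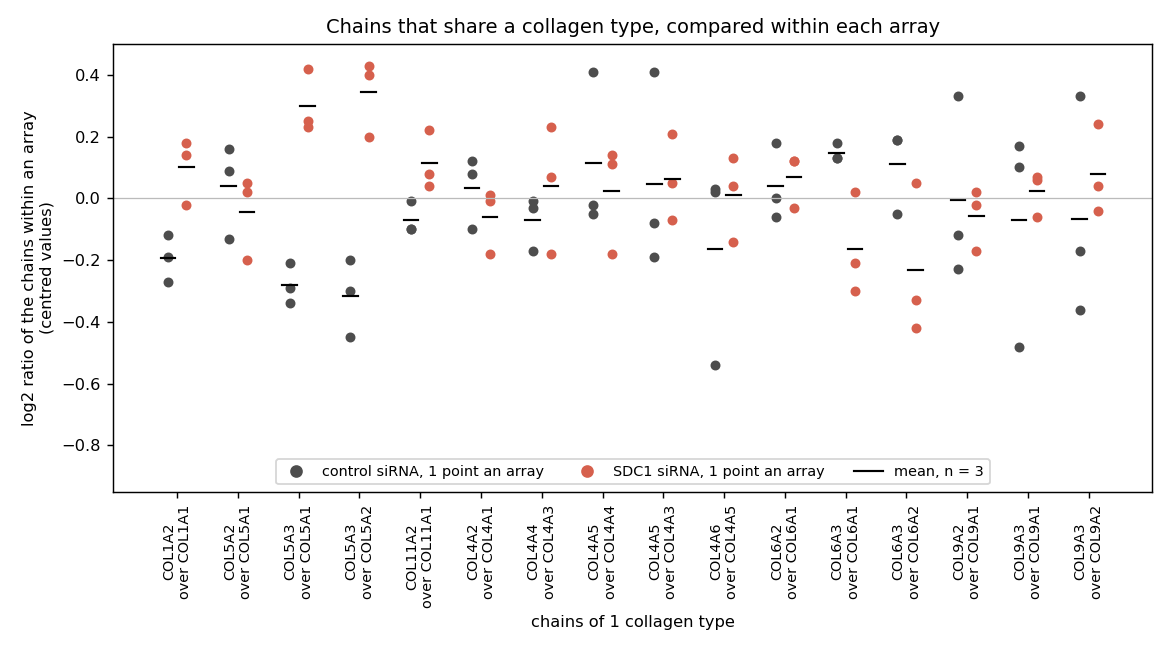
Log2 ratio within each array of chains that belong to 1 collagen type, 3 control siRNA and 3 SDC1 siRNA arrays for each of 16 pairs, with the mean as a bar. The ratios with COL5A3 lie furthest apart, with control means of -0.28 and -0.32 and SDC1 siRNA means of 0.30 and 0.34.

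Basement membrane chains showed the smallest median size of difference of the 4 main classes. Among the 6 type IV genes, 3 lay above 0 and 3 below. The median was 0.00 and the median size 0.06. COL4A1 and COL4A2, which make the type IV trimer found in nearly all basement membranes, were at 0.01 ± 0.07 and -0.09 ± 0.09. Their 95% intervals ran from -0.15 to 0.16 and from -0.29 to 0.12. COL4A1 was at -0.01, -0.01 and 0.08 in the controls and at 0.06, -0.01 and 0.02 with SDC1 siRNA, so its groups overlapped. Both genes were in the middle brightness class.

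The type IV genes lie in pairs, head to head, so that the chains of a pair are read outward from a shared promoter region. The starts of COL4A1 and COL4A2 lie 127 bases apart on chromosome 13, as RefSeq places them on GRCh38.p14, those of COL4A6 and COL4A5 lie 380 bases apart on chromosome X, and those of COL4A4 and COL4A3 lie 419 bases apart on chromosome 2. The stretches before COL4A1 and COL4A2 are shown to let their shared region be read from both sides, and that before COL4A6 because it had the largest difference of the type IV genes. They are chr13:110307158-110307307 (minus strand) for COL4A1, chr13:110307134-110307283 (plus strand) for COL4A2 and chrX:108439459-108439608 (minus strand) for COL4A6, each of 150 bases, with CCAAT and GGGCGG in capitals, also where they read on the other strand as ATTGG and CCGCCC.
COL4A1: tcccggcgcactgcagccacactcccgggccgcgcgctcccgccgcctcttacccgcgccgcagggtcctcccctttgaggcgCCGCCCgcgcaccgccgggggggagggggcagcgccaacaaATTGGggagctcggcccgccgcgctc
COL4A2: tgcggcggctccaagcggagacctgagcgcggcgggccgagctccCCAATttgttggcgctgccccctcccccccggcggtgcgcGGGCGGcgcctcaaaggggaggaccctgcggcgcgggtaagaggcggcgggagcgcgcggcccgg
COL4A6: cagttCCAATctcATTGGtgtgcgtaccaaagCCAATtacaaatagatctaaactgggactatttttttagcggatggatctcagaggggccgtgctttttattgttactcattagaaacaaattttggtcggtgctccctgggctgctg

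COL4A6, the alpha6 chain of epithelial and smooth muscle basement membranes, was the type IV gene with the largest difference, at 0.16 ± 0.07 (limma adjusted p = 0.47). Its arrays were at -0.03, -0.17 and -0.10 in the controls and at 0.03, 0.13 and 0.03 with SDC1 siRNA, without overlap. COL4A5, its head-to-head partner, was at -0.01 ± 0.13, and its control replicate 2 stood apart at 0.38 beside -0.06 and -0.12. Without that array COL4A5 was at 0.15. COL4A3 and COL4A4, the chains of the kidney glomerular network, were at -0.03 ± 0.07 and 0.08 ± 0.09, with all 10 of their probe sets in the lowest brightness class. These averages cover probe sets that disagreed, from -0.24 to 0.11 for COL4A3 and from -0.14 to 0.21 for COL4A4.

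FACIT genes were also spread around 0. Of 10, 6 lay above 0 and 4 below. The median was 0.03, and 1 gene had an unadjusted limma p under 0.05, a share of 10% against 10.6% of all genes. COL12A1, a fibril-surface collagen of dense connective tissue, was at 0.03, 0.30 and 0.05 in the controls and at -0.16, -0.09 and -0.04 with SDC1 siRNA. Control replicate 2 was the highest array, and without it the difference of -0.22 ± 0.09 (limma adjusted p = 0.434) was -0.14. Its 5 probe sets ran from -0.35 to 0.09. The type IX chains COL9A1, COL9A2 and COL9A3, which coat cartilage fibrils, were at 0.05 ± 0.11, 0.00 ± 0.10 and 0.15 ± 0.10. With all probe sets averaged, COL9A1 was at -0.03 and COL9A2 at 0.15. COL16A1 and COL21A1 were in the top brightness class, at -0.06 ± 0.08 and -0.10 ± 0.08. COL14A1, a FACIT of tendon and skin, was at -0.02 ± 0.07, the average of 4 probe sets of the lowest class that disagreed, from -0.17 to 0.28. COL19A1 and COL20A1 were at 0.07 ± 0.07 and 0.11 ± 0.12. COL22A1, a collagen of tissue junctions, had the widest error of all members, at 0.15 ± 0.16.

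Transmembrane collagens span the cell membrane and can shed their outer part. COL13A1, found at cell-matrix adhesions, was at 0.16 ± 0.09 (limma adjusted p = 0.558). COL25A1, known from amyloid plaques, was at -0.18, -0.26 and 0.07 in the controls and at -0.05, 0.12 and 0.05 with SDC1 siRNA. Its difference of 0.16 ± 0.10 was 0.09 without control replicate 2 and 0.26 without control replicate 3. With shared-sequence probe sets left out it was 0.06, and with all probe sets averaged 0.07. COL23A1 was at -0.09 ± 0.14. The groups overlapped in all 3, and none had an unadjusted limma p under 0.05. In COL23A1, control replicate 2 was the lowest array, at -0.29 beside controls at 0.25 and 0.17, and the difference was -0.26 without it. The class median of 0.16 was -0.01 when probe sets of shared sequence types were left out, with 2 genes remaining.

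Outside these classes, the multiplexins COL15A1 and COL18A1 both had values below 0, and neither passed over all genes. Multiplexins are basement membrane collagens with many helix interruptions, whose C-terminal ends are cut off as endostatin-type fragments. COL15A1 was at 0.04, 0.14 and 0.20 in the controls and at -0.04, -0.39 and -0.13 with SDC1 siRNA, with no overlap. Its difference was -0.31 ± 0.10 (limma adjusted p = 0.339), from 1 probe set, and -0.21 without SDC1 siRNA replicate 2. COL18A1, which carries heparan sulfate chains as syndecans do, was at 0.06, 0.04 and 0.13 in the controls and at -0.10, -0.09 and -0.02 with SDC1 siRNA. It did not overlap either, at -0.15 ± 0.07 (limma adjusted p = 0.488), and its 2 probe sets gave -0.13 and -0.17.

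The chains of type VI collagen, which assemble into beaded microfilaments around cells, differed in sign. COL6A1 was at 0.15 ± 0.07 and COL6A2 at 0.18 ± 0.09 (limma adjusted p = 0.513 and 0.517), and these neighbours on chromosome 21 were both in the top brightness class. That class rests on 1 of 8 probe sets for COL6A1 and on 1 of 2 for COL6A2. COL6A1 had the most probe sets of any member, and all 8 were above 0, between 0.13 and 0.25. COL6A3, the third chain of the common trimer, was at -0.16 ± 0.08. COL6A6, an alternative to COL6A3 in that trimer, was at 0.15, 0.24 and 0.07 in the controls and at -0.05, -0.21 and -0.17 with SDC1 siRNA. The groups did not overlap, and the difference was -0.30 ± 0.08 (limma adjusted p = 0.26), although both probe sets were in the lowest brightness class. COL6A5, its neighbour on chromosome 3, was at 0.03 ± 0.08.

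COL7A1, the chain of the anchoring fibrils that fasten the basement membrane to the tissue below, was at -0.08, 0.17 and -0.14 in the controls and at 0.12, 0.08 and -0.18 with SDC1 siRNA. The groups overlapped across nearly their whole range, and the difference was 0.03 ± 0.11. It changed sign when some single arrays were left out, between -0.04 and 0.12. None of the network-forming chains passed, with COL8A1 at 0.11 ± 0.12, COL8A2 at 0.15 ± 0.09 and COL10A1, the type X chain of growth-plate cartilage, at 0.08 ± 0.09. With all probe sets averaged, COL8A1 was at -0.04 and COL8A2 at 0.02. COL8A2, a chain of the corneal Descemet's membrane, was at -0.15, 0.07 and -0.14 in the controls and at -0.07, 0.13 and 0.17 with SDC1 siRNA, with overlap. COL28A1, a collagen of peripheral nerve, was at 0.12, -0.15 and -0.22 in the controls and at 0.01, 0.13 and 0.02 with SDC1 siRNA, a difference of 0.13 ± 0.10 with overlap. It was 0.23 without control replicate 1 and 0.06 without control replicate 3, and its 2 probe sets were at 0.28 and -0.01. COL26A1 was at -0.03 ± 0.07.

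Set side by side, the medians of the 4 main classes were 0.04 for fibrillar, 0.00 for basement membrane, 0.03 for FACIT and 0.16 for transmembrane collagens, where all genes had 0.01. The median size of the difference was 0.15, 0.06, 0.09 and 0.16 in the same order, against 0.08 for all genes. The share with an unadjusted limma p under 0.05 was 45.5%, 16.7%, 10% and 0%, against 10.6%. Chains of a class share arrays and often partners, and the classes hold between 3 and 11 genes, so these are descriptions and the difference between classes was not tested.

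The promoter table matched 31 of the 43 collagen genes. The fibrillar genes COL1A1, COL1A2, COL2A1, COL3A1 and COL5A2 were among those not matched. In the 250 bases before the start, GGGCGG was found on either strand in 58.1% of these and in 42.3% of 27305 promoters of that length. CCAAT was found in 25.8% and 33%, and TATAAA in 12.9% and 11.1%. The searched stretches of the head-to-head type IV pairs overlap, so a match there can count for both genes of a pair. A match describes the letters only.

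The probe sets of a gene often disagreed. Of the 35 collagen genes with several probe sets, 15 had all of them on the same side of 0 and 20 had some on each side. The 112 probe sets comprised 12 of the top class, 48 of the middle class and 52 of the lowest class. Of the 10 genes in the top class, 5 took their value from 1 of several probe sets. Tested singly over 54613 probe sets, 0 of the 112 passed a limma adjusted p of 0.05, as did 0% of all probe sets, and the lowest adjusted p was 0.394. Of the 112, 20 had an unadjusted p under 0.05, or 17.9% against 8.33% of all probe sets. Of these 20, 11 were higher and 9 lower, where the background was 4.18% and 4.15%. The groups did not overlap in 29, or 25.9% against 14.5%, of which 16 were higher and 13 lower beside 7.06% and 7.42% of all probe sets.

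**Figure D4:**
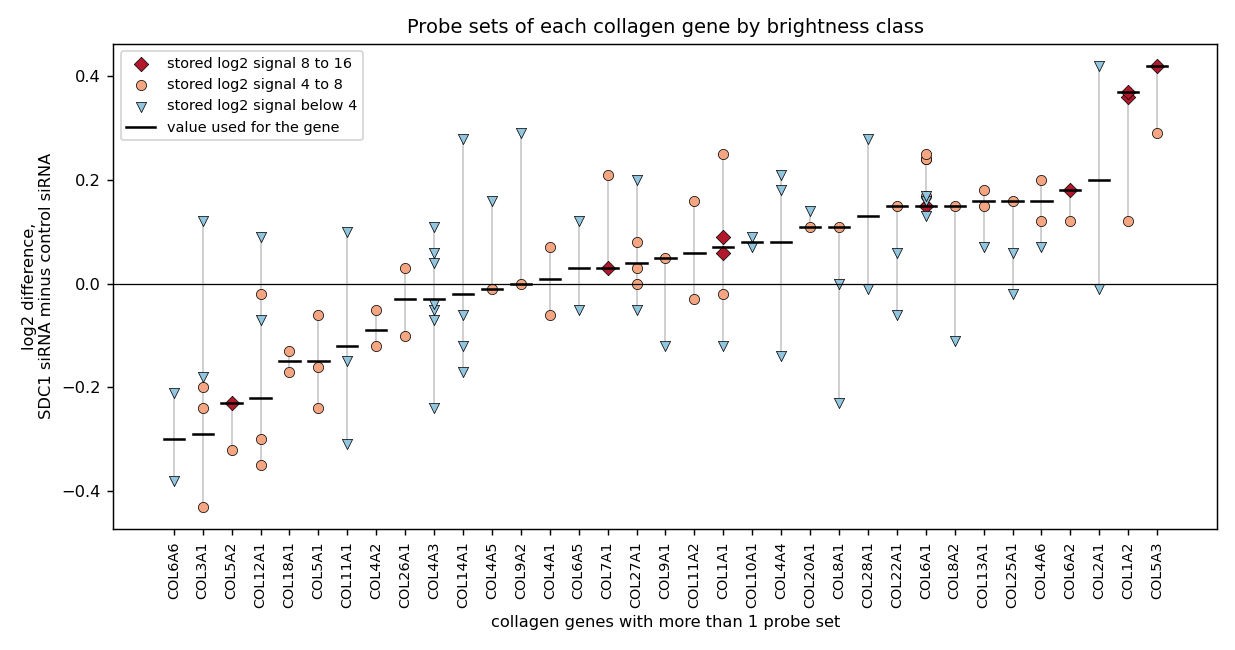
Log2 difference (SDC1 siRNA minus control siRNA) of each probe set for the 35 collagen genes with several, with symbols for the brightness class and a black bar at the value used for the gene. COL6A1 has all 8 probe sets above 0, while the probe sets of COL2A1 lie at 0.42 and -0.01.

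The genes that make, process and bind collagen were read from 7 lists. Of 48 listed genes, COLGALT2 and the collagen receptor DDR1 were not measured by a probe set with 1 symbol. Of 46 measured genes, 0 passed over all genes, 30 were above 0 and 16 below, and the median was 0.04 against 0.01 for all genes. An unadjusted limma p under 0.05 was seen in 8.7%, where 10.6% of all genes had one. Among 9 genes of prolyl hydroxylation, which stabilises the helix, 6 were above 0 and the catalytic subunits P4HA2 and P4HA1 were at 0.19 ± 0.09 and -0.15 ± 0.08. Among 4 genes of lysyl hydroxylation and glycosylation, PLOD3 was at 0.11 ± 0.07 and COLGALT1 at 0.08 ± 0.08. Of 7 genes for chaperones and export, 6 were below 0 with a median of -0.14, and 14.3% were above 0 against 52.1% of all genes. An unadjusted limma p under 0.05 was seen in 2 of the 7, or 28.6% against 10.6%. These were KLHL12, a ubiquitin ligase adaptor for large export vesicles, at -0.16 ± 0.07 (limma adjusted p = 0.451), and the collagen prolyl isomerase FKBP10 at -0.23 ± 0.10 (adjusted p = 0.47). The groups overlapped for FKBP10 and did not for KLHL12.

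Of 8 procollagen proteinases and their enhancers, 7 were above 0 with a median of 0.04, and the N-proteinases ADAMTS14 and ADAMTS2 were at 0.22 ± 0.11 and 0.20 ± 0.11. Of 5 cross-linking lysyl oxidases, 4 were above 0, with LOXL3 at 0.23 ± 0.08 (limma adjusted p = 0.356) and LOX at 0.11 ± 0.07. Of 7 measured collagen receptors, DDR1 not among them, 6 were above 0 with a median of 0.11. The integrin subunit ITGA2 was at -0.42, -0.30 and -0.21 in the controls and at 0.12, 0.25 and 0.18 with SDC1 siRNA, a difference of 0.49 ± 0.08 (limma adjusted p = 0.103) with no overlap. The endocytic receptor MRC2 was at 0.11 ± 0.08. The 6 collagenases had a median of 0.01, with MMP2 at 0.06 ± 0.07 and MMP1 at -0.04 ± 0.09.

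Markers of other cell types were read beside these values. The 12 markers of fibroblasts and mesenchymal cells, collagens left out, went in both directions, with 7 above 0 and 5 below and a median of 0.10. VIM, an intermediate filament protein, was at -0.46 ± 0.08 (limma adjusted p = 0.126), and TAGLN, an actin-binding protein, at 0.37 ± 0.07 (adjusted p = 0.147). The largest difference of the list, named after its values were seen, was that of LUM, a proteoglycan that binds collagen fibrils, at -0.62 ± 0.17 (limma adjusted p = 0.273). Its arrays were at 0.07, 0.84 and 0.36 in the controls and at -0.07, -0.25 and -0.28 with SDC1 siRNA, with control replicate 2 the highest. Of the 12, 4 had an unadjusted limma p under 0.05 (33.3% against 10.6% of all genes), 3 of them below 0 and 1 above, and PDGFRB was the remaining one of these at -0.24 ± 0.10. The groups did not overlap in 6 of the 12, or 50% against 16.7%, with 4 higher and 2 lower. The sum of the 12 relative log2 signals ran from -0.26 to 0.56 in the controls and from -0.31 to -0.10 with SDC1 siRNA, so the groups overlapped. The 4 endothelial markers, 3 above 0 and 1 below, summed to between -0.75 and -0.31 in the controls and between 0.16 and 0.36 with SDC1 siRNA. These sums did not overlap, but no background share was computed for sums. Of these 4, 2 had an unadjusted limma p under 0.05, or 50% against 10.6% of all genes. CDH5 was at 0.37 ± 0.12 and VWF at 0.24 ± 0.09 (limma adjusted p = 0.342 and 0.392). The groups did not overlap in these 2, or 50% against 16.7% of all genes. PECAM1 at 0.10 ± 0.09 and KDR at -0.01 ± 0.11 overlapped. The part of all these markers in the collagen values was not tested. All 6 arrays hold RNA of the Caco-2 line, so these markers do not count fibroblasts or endothelial cells. Centred values do not show whether a marker was absent.

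Of 12 markers of enterocyte-like epithelium, 10 were above 0, with a median of 0.07 and an unadjusted limma p under 0.05 in 0 of them, where 10.6% of all genes had one. The lowest p belonged to VIL1 and ANPEP, a cytoskeletal and a peptidase marker of the brush border, with VIL1 at 0.19 ± 0.09 and ANPEP at 0.16 ± 0.11 (adjusted p = 0.523 and 0.675). CDH1, EPCAM, KRT8 and KRT18 were in the top brightness class, while KRT20, ANPEP, SI, CDH17 and FABP1 were in the lowest. Of the fibroblast or mesenchymal markers, VIM, TAGLN and S100A4 were also in the top class, and FAP and POSTN in the lowest. Of the endothelial markers, VWF was in the top class and KDR in the lowest. The top class of VWF, VIM and CDH1 rested on 1 of 2 probe sets each.

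Some arrays stood out more often than others in the collagen genes. Control replicates 2 and 3 were the arrays farthest from 0 in 12 and 11 of the 43 genes, and the other 4 arrays in 4 to 6 each. That count was not made over all genes. The SD over collagen genes was 0.16 in control replicate 2 and between 0.10 and 0.14 in the others, and over all genes it was 0.17 and between 0.11 and 0.14. In all 13 refits of the gene values, COL5A3, COL5A2 and COL15A1 kept an unadjusted limma p under 0.05, with ranges of 0.35 to 0.49, -0.28 to -0.20 and -0.39 to -0.21. COL6A6 did so in the 12 refits that held it (-0.34 to -0.25), and COL1A2 in 12 of 13. COL4A6 did so in 5, COL3A1 in 9 and COL12A1 in 8 of 13 refits, and COL2A1 in 9 of 12. These genes were named by that p on the same arrays, so the refits are no independent test of them. Some refits could hardly move a gene: COL15A1 has 1 probe set and stayed at -0.31 whichever rule for probe sets was used. The share of all genes that kept such a p was not computed.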

How the data were processed

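Gene expression was measured on 6 arrays of Caco-2 RNA, 3 per siRNA, and the sample titles gave group and number. The deposited log2 values were made by the authors with RMA, per the submitters' processing notes; no version was found in the sources used here. The median over the arrays was 0 for all 54675 probe sets (tolerance 1e-06), so the values are centred by a step no source names. Brightness classes were read from the steps of single-precision storage (tolerance 0.1 of a step). Of 9444 probe sets in the top class, 6.26% also met the next coarser step, which gives the rate at which chance places one a class too high. That is a rate per probe set and not the share of top-class calls that are wrong, which was not computed. The latter can be higher, since the middle class held 24720 probe sets and a gene takes the brightest class among its probe sets. The planned highest mean per gene cannot be read from centred values, so the planned fallback, the mean of the brightest class, was used.

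Symbols came from the platform annotation: 41091 probe sets had 1, 1801 had several and 11721 had none, with 62 controls left out. The comparison used limma 3.58.1 (R 4.3.3) over 19775 genes with the group as the only term, Benjamini-Hochberg adjusted, and the script was tested on simulated data. A collagen is named in full by array if its unadjusted p is under 0.05 or it has the largest difference of its class; up to 2 genes per other list with the lowest p are named. The collagens, pairs and lists were chosen with earlier results of these data known. Refits left out single arrays, weighted arrays, centred them on their medians, normalized quantiles anew, added a replicate block or changed the rule for probe sets. No 2 arrays held the same values, and the labels name no batch. Same-numbered arrays correlated at -0.01, -0.26 and -0.11 in their deviations from the group means, so the numbers were not taken to pair them.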

Additional observations from a re-analysis of the deposited data

How the results depend on the processing

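The count of 0 collagen genes past an adjusted p of 0.05 held in all 14 alternatives run, among them single probe sets, with a lowest limma adjusted p of 0.0786 for any member (COL1A2, array weights). Collagen genes at an unadjusted p under 0.05 numbered between 6 and 10 with an array left out, where 7.11% to 12.4% of all genes reached that p, and 13 with array weights, where 13.8% did. Over all genes, 39 passed with array weights, 11 in the brighter classes, 3 with the mean of all probe sets, 0 with single probe sets and 0 with the replicate block, against 5. Leaving out an array gave 0 to 1 genes. SDC1 lost its call with the replicate block (-0.84, adjusted p = 0.0929), after another quantile normalization (-0.90, adjusted p = 0.0831) and without any array (-0.92 to -0.78).

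Medians are small beside the choices. With an array left out they ran from 0.01 to 0.04 for all collagens, 0.01 to 0.05 for fibrillar, -0.02 to 0.04 for basement membrane, 0.00 to 0.03 for FACIT, 0.09 to 0.20 for transmembrane and 0.00 to 0.08 for the other collagens. Another quantile normalization gave 0.04 for all collagens and 0.01 for basement membrane. For basement membrane collagens, array weights gave 0.03 and averaging all probe sets gave 0.04. Without probe sets of shared sequence types the medians were 0.00 for fibrillar, 0.05 for basement membrane, 0.05 for FACIT and -0.01 for transmembrane collagens. COL7A1 ran from -0.04 to 0.12 with an array left out. The cause was not tested. No collagen gene was called in the main fit, so the replicate block could only add a call, and it added none. With it, 8 collagen genes had an unadjusted limma p under 0.05, where 8.42% of all genes did, against 9 in the main fit. COL4A6 dropped out. Dim probe sets limit what can be said of the 11 genes in the lowest class.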
